A study of Mus musculus with 2 samples.

Results

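The ETS factor genes of blood cells were examined for binding of STAT5, the transcription factor that IL7 and related cytokines activate. The set held 9 of the 21779 protein-coding genes with a RefSeq position on GRCm38, which has the coordinates of mouse build mm10: Ets1, Fli1, Ets2, Erg, Etv6, Elf1, Spi1, Spib and Gabpa. They were chosen by family and by their roles in blood, with earlier results of these data known. A STAT5 peak was counted for a gene when its midpoint lay inside the gene or within 50 kb of either end. This gave 30 of the 5908 peaks in the deposited list.

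ETS proteins bind DNA through a conserved winged-helix domain that reads a GGAA core. In blood, ERG, FLI1 and ETV6 are needed by stem and progenitor cells, PU.1 (encoded by Spi1) and SPI-B direct myeloid and B cell development, and ETS1 acts in lymphocytes. STAT5 dimers bind the palindrome TTCNNNGAA, where N is any base, and carry the IL7 signal that B cell progenitors need to survive and divide.

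STAT5 binding was profiled by chromatin immunoprecipitation and sequencing (ChIP-seq), which yields fragments of DNA held by a protein. The cells were B cell progenitor leukemia cells from the lymph nodes of a C57BL/6 leukemic mouse of the genotype Stat5b-CAxBlnk+/-. Such mice carry a Stat5b transgene whose product is always active and have lost 1 copy of Blnk, which encodes an adaptor downstream of the pre-B cell receptor. They were stimulated with 10 ng/mL IL7 for 30 minutes and fixed. There was 1 STAT5 ChIP library and 1 input library of the same genotype, treatment and tissue, with no antibody, and the protocol names 1 mouse. The sources used here do not give the age of the mouse or the promoter of the transgene. The antibody is labelled anti-STAT5, with no distinction between STAT5A and STAT5B.

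The list gives the position of each peak and nothing on its height, and read depth is unknown. Where a gene has no listed peak, none passed the authors' threshold, whose value the sources used here do not give. With 1 library and no unstimulated or wild-type sample, no test between samples was possible, and the counts below describe this 1 list. Peaks do not measure expression, so the labelled cell type could not be checked against its markers. Exons were not in the gene table, so peaks are placed inside or outside a gene and not in exons, introns or untranslated regions.

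Sequence under a STAT5 peak could be read at Etv6 and at the gene beside Spi1, from RefSeq promoters (GRCm38.p6), each running from 250 bases before to 50 bases after an annotated gene start. Of the 9 genes, 6 matched that table, with 9 promoters, and Ets1, Fli1 and Spi1 did not. The Etv6 peak (chr6:134035076-134036031, 956 bp) covered the whole Etv6 promoter and the whole promoter of Gm46977, a neighbouring gene read from the opposite strand. Both are shown 5′ to 3′ on the strand of their gene, the first up to its site and the second up to the gene start, because each holds the STAT palindrome, in capitals. The third sequence is the complete peak counted for Spi1, on the strand of Slc39a13, shown because it holds no match to the palindrome.
Etv6 promoter up to its site (chr6:134035450-134035729, plus strand): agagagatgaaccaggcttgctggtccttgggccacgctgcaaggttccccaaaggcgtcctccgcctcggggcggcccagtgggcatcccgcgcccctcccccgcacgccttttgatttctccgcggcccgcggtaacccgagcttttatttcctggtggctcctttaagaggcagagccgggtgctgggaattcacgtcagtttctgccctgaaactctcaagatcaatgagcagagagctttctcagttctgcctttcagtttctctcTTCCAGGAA
Gm46977 promoter up to its start (chr6:134035313-134035562, minus strand): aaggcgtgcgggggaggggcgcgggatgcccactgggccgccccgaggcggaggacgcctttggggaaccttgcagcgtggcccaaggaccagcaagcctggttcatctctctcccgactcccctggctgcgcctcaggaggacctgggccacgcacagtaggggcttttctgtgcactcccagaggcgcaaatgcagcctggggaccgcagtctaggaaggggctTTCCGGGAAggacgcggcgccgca
Peak at Slc39a13 near Spi1 (chr2:91070301-91070546, minus strand): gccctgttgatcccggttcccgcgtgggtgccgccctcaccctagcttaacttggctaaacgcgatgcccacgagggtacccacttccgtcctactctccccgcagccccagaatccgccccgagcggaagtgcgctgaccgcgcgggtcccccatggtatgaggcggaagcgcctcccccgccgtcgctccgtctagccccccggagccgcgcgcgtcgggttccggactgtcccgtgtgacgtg

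The Etv6 site, TTCCAGGAA, lay at chr6:134035721-134035729 and began 21 bases past the annotated first base of the gene, 172 bp from the peak midpoint. The Gm46977 site, TTCCGGGAA, lay at chr6:134035328-134035336, on the other side of the midpoint and 221 bp from it. The starts of the sites were 393 bp apart, so 1 wide peak spanned both. The palindrome reads the same on both strands and occurred in 8.3% of the 32851 promoters of the table. It occurred in 38.6% (exact 95% interval 35.1 to 42.2) of the 738 promoters that overlapped any STAT5 peak. These intervals cover counting error only, and promoters that overlap or share a peak were each counted.

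Among the 9 promoters of the ETS genes, only that of Etv6 held TTCNNNGAA, and only that of Etv6 overlapped a peak. ETS sites were searched on both strands as CCGGAAGT and GAGGAAGT, which occurred in 3.89% and 3.2% of all promoters. In the 738 promoters that overlapped any STAT5 peak they occurred in 8.67% (6.74 to 10.9) and 5.83% (4.25 to 7.77). None of the 9 promoters of the ETS genes held CCGGAAGT, and the Gabpa promoter held GAGGAAGT, at chr16:84835011-84835018. Only the exact forms CCGGAAGT and GAGGAAGT were searched, so other sequences with a GGAA core were not counted. A match is a run of letters and not a measured site.

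Peaks were found for 6 of the 9 genes (66.7%, exact 95% interval 29.9 to 92.5), against 33.0% of all protein-coding genes by the same rule. Because the 9 were chosen with earlier results of these data known, this sets 2 shares side by side and is not a test. Ets1 had 10 peaks, Fli1 8, Erg 4, Spib 4, Etv6 3 and Spi1 1. Elf1, Ets2 and Gabpa had 0. The share with a peak rises with the length of the gene, from 29.0% of genes under 25 kb to 38.4% of those from 25 to under 100 kb and 40.9% of those of 100 kb and over. Of the 9 genes, Ets1, Fli1, Erg, Etv6 and Elf1 are in the longest class, and 4 of these 5 had a peak.

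The counts of Ets1 and Fli1 stood far up the distribution over genes. At least 8 peaks were counted for 41 genes (0.188% of protein-coding genes) and for 0.865% of genes of 100 kb and over. Only 6 protein-coding genes had more peaks than Ets1: Cradd with 15, Foxp1 with 13, Cyth1 with 12, and Arid1b, Clec16a and Ifnar1 with 11 each. With ties and Ets1 itself counted, 17 genes (0.0781%) had at least as many as Ets1. Among the 2427 genes of 100 kb and over, 10 did. At least as many as Erg and Spib was reached by 2.74% of genes and at least as many as Etv6 by 5.78%, while the single peak of Spi1 is a count that 33.0% of genes reach. These shares are over genes of all lengths, with a median of 17.2 kb, while Erg has 227.4 kb and Etv6 234.5 kb. They were not taken among genes of 100 kb and over. The median gene had 0.

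**Figure D1:**
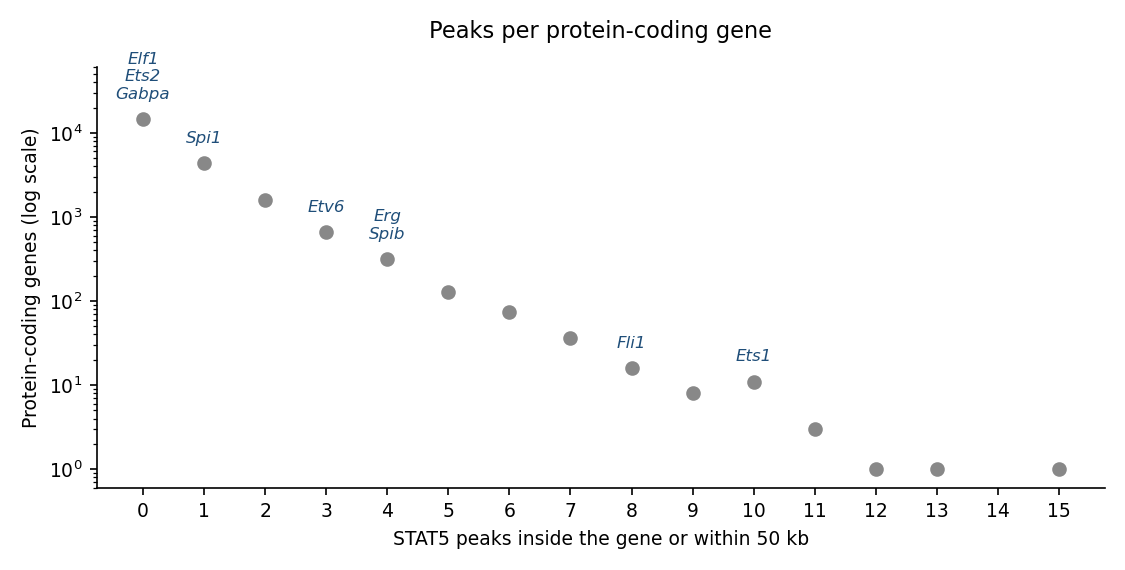
Number of protein-coding genes (vertical axis, log scale) with each number of STAT5 peaks inside the gene or within 50 kb (horizontal axis). Each point is a number of peaks, and the names mark where the 9 ETS genes fall: Ets1 at 10 and Fli1 at 8 lie in the thin upper tail, and Elf1, Ets2 and Gabpa at 0.

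Of the 30 peaks, 22 (73.3%, exact 95% interval 54.1 to 87.7) lay inside the gene they were counted for. Ets1 and Fli1 held 15 of the 22. The genes made up 893.0 kb of the 1785.8 kb searched. Inside any protein-coding gene lay 24 of the 30 (80.0%), against 52.1% of all peaks, but the searched windows are built around genes. The intervals in this paragraph take peaks as independent, which clustered peaks of 1 library are not, and no difference was tested. A peak inside the gene was found in 5 of the 9, against 9.85% of all protein-coding genes and 27.6% of those of 100 kb and over. Within 1 kb of an end of any protein-coding gene lay 4 of 30 (13.3%, 3.76 to 30.7), close to the 15.9% of all peaks. For 25 of the 30 the nearest protein-coding gene end was that of the counted gene. The other 5 were 1 of the Fli1 peaks, the Spi1 peak and 3 of the Spib peaks.

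Ets1 and Fli1 are neighbours on chromosome 9, and both held STAT5 peaks. Fli1 lies at chr9:32422204-32543432 and Ets1 at chr9:32636241-32757820, with 92.8 kb between them. The joint locus, with 50 kb on either side (chr9:32372204-32807820, 435.6 kb), held 18 peaks, of which 9 lay inside Ets1, 6 inside Fli1, 2 between the genes and 1 beyond Fli1. No peak was counted for both genes.

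This density was 4.132 peaks per 100 kb, against 0.2442 per 100 kb over the autosomes, 16.9 times as high. The autosome value covers the whole span from the first to the last protein-coding gene, gene-poor stretches included. The locus is built around genes and was chosen with earlier results of these data known, so this ratio is not a test. In windows of the same length started at each of 5901 peaks, the median count was 3, and 21 windows (0.356%) held at least 18. These fell in 4 separate regions. A region from Socs3 to Cyth1 held 25 peaks, one at Cradd and Socs2 held 20, one at Clec16a and Socs1 held 19, and a window over Fli1 and Ets1 held 19, since it also took in the next peak, 58.9 kb beyond Ets1. Socs1, Socs2 and Socs3 encode feedback inhibitors of cytokine signalling, and a window started at a peak always holds at least 1.

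Inside Ets1, which encodes a factor of B, T and NK cells, peaks were spread over 95.4 kb. On the side of the gene facing Fli1 lay peaks at chr9:32652233-32652475 (243 bp wide), chr9:32669411-32669604 (194 bp) and chr9:32694802-32695141 (340 bp). The other 6 lay past the middle of the gene, away from Fli1. These were at chr9:32699014-32699324 (311 bp), chr9:32705876-32706318 (443 bp) and chr9:32723085-32723467 (383 bp). Nearer to the far end lay chr9:32731355-32731580 (226 bp), chr9:32745891-32746174 (284 bp) and chr9:32747578-32748016 (439 bp). The last lay 10023 bp from the end of the gene away from Fli1, and the first lay 16.1 kb from the end that faces it.

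Inside Fli1, which encodes a factor of stem cells, megakaryocytes and B cells, the 6 peaks were confined to 31.4 kb. The 80.6 kb of the gene farthest from Ets1, 66.5% of its length, held no listed peak. From there towards Ets1 came chr9:32502560-32502968 (409 bp), chr9:32504100-32504425 (326 bp) and chr9:32513598-32513893 (296 bp). The last 3 were chr9:32518425-32518713 (289 bp), chr9:32529648-32529966 (319 bp) and chr9:32534007-32534254 (248 bp), the last of them 9.3 kb from the gene end that faces Ets1. The peaks of Fli1 formed a tight row, while those of Ets1 were spread over most of the gene.

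Between the genes lay chr9:32549497-32549822 (326 bp), 6.2 kb outside Fli1, and chr9:32613058-32613603, 22.9 kb outside Ets1. The latter, 546 bp wide, was the widest of the locus, at or above 92.1% of all peaks. The 63671 bp between these peak midpoints held no listed peak. The peak beyond Fli1, chr9:32391132-32391495 (364 bp), lay inside Kcnj1, which encodes a potassium channel, and the noncoding gene Gm31755, and its nearest gene end was that of Kcnj1. It was 30.9 kb from Fli1.

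Peaks of the locus were close to one another. Neighbouring midpoints were a median of 11.2 kb apart (17 distances), with 1.5 kb as the shortest and 111.5 kb, over the empty part of Fli1, as the longest. From each peak of the locus, the nearest other peak was a median of 4.8 kb away, against 30.4 kb over all peaks. With peaks less than 5 kb apart counted as 1, Fli1 had 5.

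**Figure D2:**
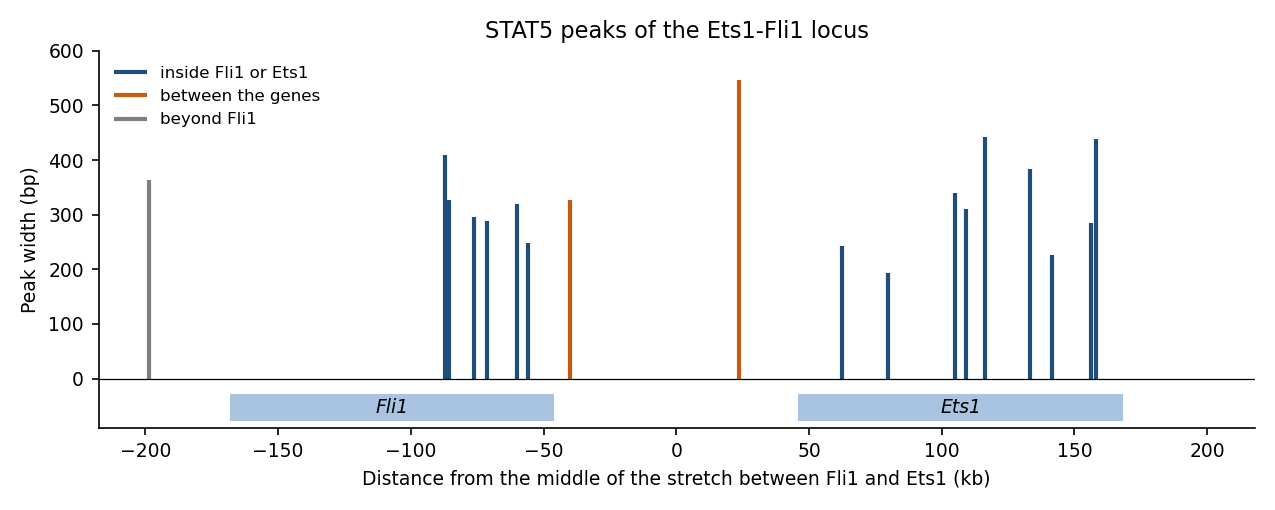
Map of the Ets1-Fli1 locus. The horizontal axis gives the distance in kb from the middle of the stretch between the genes, each vertical line is 1 STAT5 peak whose height is its width in bp (not its signal), colours give its place, and the bars below are the genes. The 6 peaks inside Fli1 stand together near its end facing Ets1, the 9 inside Ets1 are spread along the gene, and the widest peak, 546 bp, lies between the genes.

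Erg, a proto-oncogene that maintains blood stem cells, had 4 peaks, all inside the gene (chr16:95359169-95586600, 227.4 kb, minus strand). They were chr16:95405335-95405644 (310 bp), chr16:95409514-95409769 (256 bp), chr16:95428294-95428727 (434 bp, the widest) and chr16:95453581-95453868 (288 bp). All 4 lay past the middle of the gene, on the side that is transcribed last. The table gives Erg 3 starts, and all 4 peaks lay downstream of the innermost, at distances of 5.6, 30.8, 49.7 and 53.9 kb. The outermost start was 132.9 kb from the nearest peak.

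Etv6 encodes a transcriptional repressor that is fused to RUNX1 in a common form of childhood B cell leukemia. Its gene (chr6:134035700-134270158, 234.5 kb, plus strand) is as long as Erg, and had 3 peaks. The peak over its start, with the sequence given above, had its midpoint 147 bp before the annotated first base. It was 956 bp wide, at or above 99.5% of all peaks. The others lay 12.4 kb (chr6:134048006-134048213, 208 bp) and 116.5 kb (chr6:134152052-134152373, 322 bp) past the start. Of the other 8 genes, Spib had the peak nearest to one of its own ends, at 673 bp.

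Ets1 and Fli1 together held 15 peaks in 242.8 kb of gene, 6.18 per 100 kb. Erg and Etv6 together held 6 in 461.9 kb, 1.3 per 100 kb. Erg and Etv6 are the longer genes and had fewer peaks, and Elf1, of 101.3 kb, had none.

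PU.1 and SPI-B are close relatives that bind similar DNA and can in part replace each other in B cells. Spib (chr7:44525995-44532087, 6.1 kb, minus strand) had 1 peak inside the gene, chr7:44531308-44531521, 214 bp wide and 657 bp past the annotated start. It did not reach the promoter window of Spib. The other 3 peaks lay 24.6 kb (chr7:44556473-44556827, 355 bp), 38.0 kb (chr7:44569814-44570376, 563 bp, the widest) and 40.3 kb (chr7:44572113-44572610, 498 bp) outside the gene. Their nearest gene ends were those of Nr1h2, which encodes a nuclear receptor for oxysterols, and of Napsa, which encodes an aspartic protease, the latter for both of the farthest. The window of Spib held 7 protein-coding genes, so its count of 4 is not a count for Spib alone, and within 20 kb it fell to 1.

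Spi1 (chr2:91082374-91115759, 33.4 kb) had no peak inside the gene. The 1 peak counted for it (chr2:91070301-91070546, 246 bp) was 11951 bp outside Spi1, 18 bp from an end of Slc39a13, which encodes a zinc transporter, and it overlapped the promoters of Slc39a13 and of the noncoding gene Gm39874. Assigned by the nearest gene end, Spi1 had 0 peaks and Spib 1. The next peak on the chromosome was 360.5 kb from Spi1.

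Ets2, Elf1 and Gabpa had no listed peak. ETS2 is a target of the MAP kinase cascade, ELF1 acts in lymphocytes and endothelium, and GABPA is the DNA-binding subunit of GABP, which is known to activate Il7r. The nearest peak was 210.7 kb from Ets2 (chr16:95702407-95721049), 184.2 kb from Elf1 (chr14:79481174-79582491) and 131.7 kb from Gabpa (chr16:84834891-84863783). A search to 100 kb found none for any of them. Ets2 is a neighbour of Erg, 115.8 kb away, but the Erg peak nearest to it was 248.7 kb from it.

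**Figure D3:**
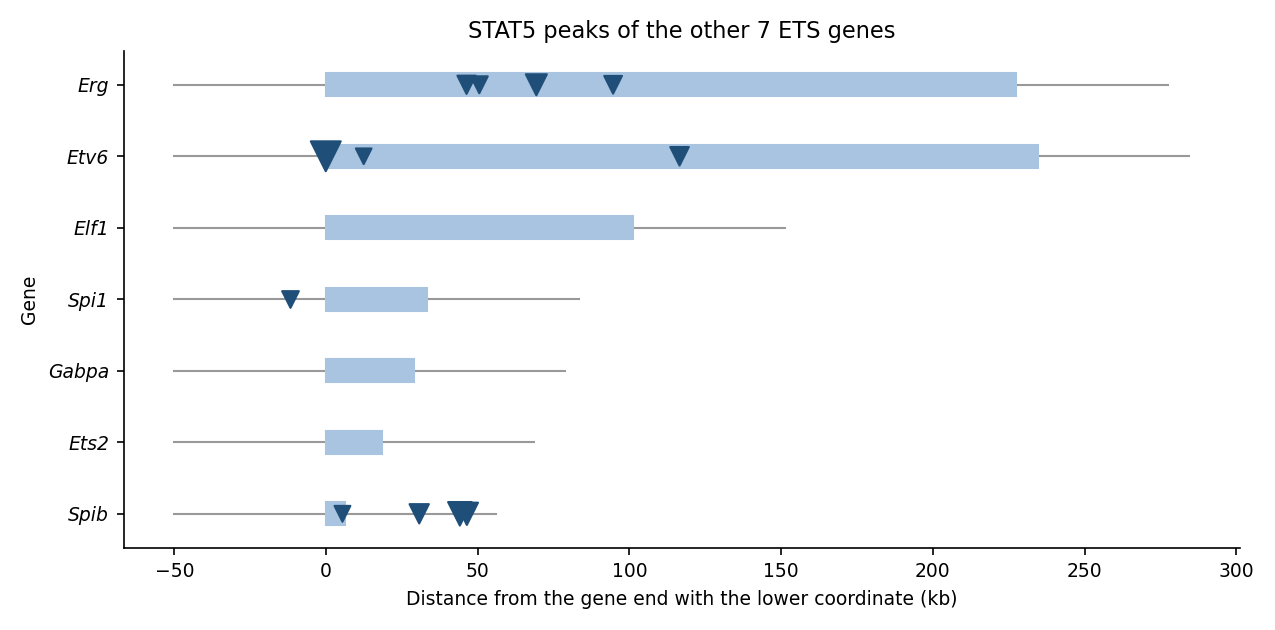
STAT5 peaks of the 7 ETS genes outside the Ets1-Fli1 locus. The horizontal axis is the distance in kb from the gene end with the lower coordinate, bars are genes, thin lines the 50 kb on either side, and each triangle is 1 peak, larger for wider peaks. The peaks of Erg all lie inside the gene, the large triangle at the start of Etv6 is the 956 bp peak, 3 of 4 Spib peaks lie outside Spib, and Elf1, Gabpa and Ets2 have none.

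For the 9 genes, the 50 kb limit had few peaks near it. The farthest peak counted was 40.3 kb from Spib. The nearest peaks counted for none of the 9 genes were 58.9 kb from Ets1, 76.2 kb from Erg and 96.7 kb from Etv6.

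Peak widths of the ETS genes overlapped those of the whole list. The 30 peaks had a median width of 320.5 bp (quartiles 263 and 402.5, range 194 to 956), and all 5908 had a median of 295 bp (quartiles 236 and 388). Of the 30, 19 (63.3%) were at least as wide as the median of the list, a width that 50.1% of all peaks reach. The 18 peaks of the Ets1-Fli1 locus had a median of 322.5 bp and the other 12 one of 316 bp. The widths of the locus overlapped those of the other ETS genes. Widths carry no replicate error here, and the difference from the list was not tested.

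**Figure D4:**
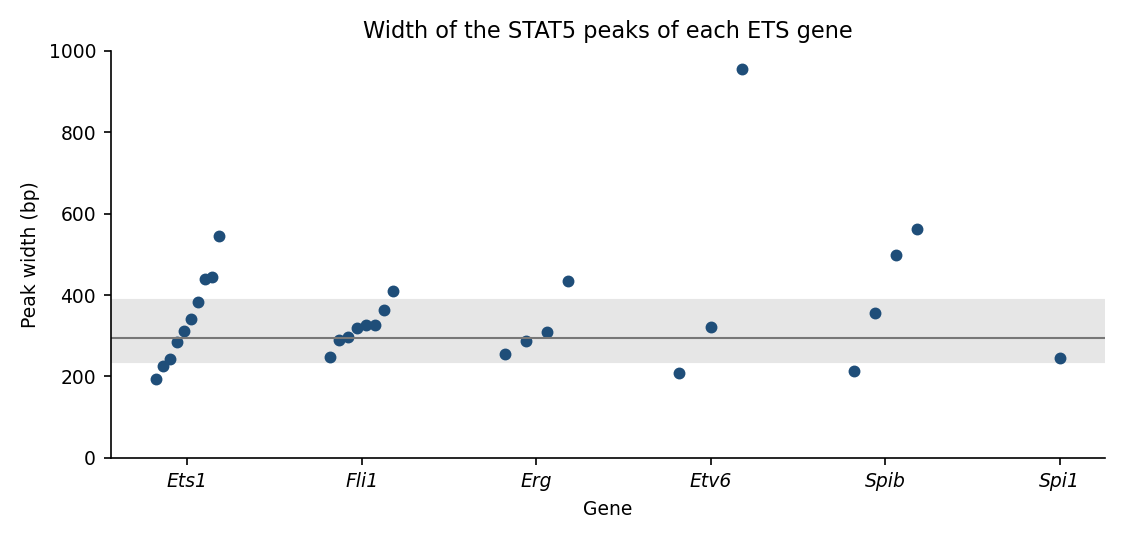
Width in bp of each STAT5 peak (points, in order of width) for the 6 ETS genes with a peak. The line is the median of all 5908 peaks, 295 bp, and the grey band their quartiles, 236 to 388 bp. The points of Ets1 and Fli1 lie around the band, and the 956 bp peak of Etv6 stands far above it.

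The rest of the ETS family was counted by the same rule. Of 18 genes, 10 had a peak (55.6%, exact 95% interval 30.8 to 78.5), against 33.0% of all protein-coding genes. This list was also chosen with earlier results of these data known, and the difference was not tested. A peak inside the gene was found in 3 of the 18, Elk4, Etv3 and Etv5, against 9.85% of all protein-coding genes. Etv5, whose product acts downstream of receptor kinases, had 3 peaks, 2 of them inside. Elk4, a partner of serum response factor, and Etv3, a repressor, had 3 each, with 1 inside. The highest count in the rest of the family, 3, equals that of Etv6. These 18 genes are shorter, with a median length of 16.9 kb against 101.3 kb for the 9. Per 100 kb of window, Etv3 had 2.618 peaks, Elk4 2.524 and Etv5 1.896. These values lie above those of Erg (1.222) and Etv6 (0.897) and below those of Ets1 (4.513) and Fli1 (3.616).

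Elk1, Spic and Etv3l had 2 peaks each, and Elf2, Elk3, Erf and Spdef 1 each. Some lay close to the 50 kb limit: both Spic peaks (47.9 and 48.9 kb outside the gene), the Elk3 peak (48.9 kb) and 1 Elk1 peak (47.7 kb). Both Etv3l peaks were also counted for its neighbour Etv3, so the 10 genes had 17 distinct peaks. The peak of Elf2 (chr3:51341378-51341793, 416 bp), a relative of Elf1, was 0.9 kb outside the gene. Both Elk1 peaks were among only 44 on chromosome X, and their nearest gene ends were those of Timp1 and Syn1. Elf3, Elf4, Elf5, Ehf, Etv1, Etv2, Etv4 and Fev had 0. Assigned by the nearest gene end, 4 of the 18 genes had a peak (Elf2, Elk4, Etv3 and Etv5), against 16.4% of all protein-coding genes by that assignment.

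Runx and Ikaros factors, which also act in lymphocytes, were counted by the same rule. Of Runx1, Runx2, Runx3 and Cbfb, 3 of 4 had a peak, with 10 at Runx1, the factor of definitive blood formation, 8 of them inside the gene. Runx2 had 2 peaks inside the gene, of which 0 had their nearest gene end at Runx2. Of the Ikaros family, 4 of 5 had a peak, and the highest count was 5, at Ikzf3. Of these 5, 2 lay inside Ikzf3 and 2 had their nearest gene end there. These counts stand beside 33.0% of all protein-coding genes. By length the share was 29.0% under 25 kb, 38.4% from 25 to under 100 kb and 40.9% at 100 kb and over. Of the Ikaros genes only Ikzf2, of 156.1 kb and with 0 peaks, is in the longest class. Per 100 kb of window, Ets1 had 4.513 peaks, Spib 3.77 in its short, gene-rich window, Fli1 3.616, Runx1 3.081, Ikzf4 2.881 and Ikzf3 2.756. These differences were not tested.

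**Figure D5:**
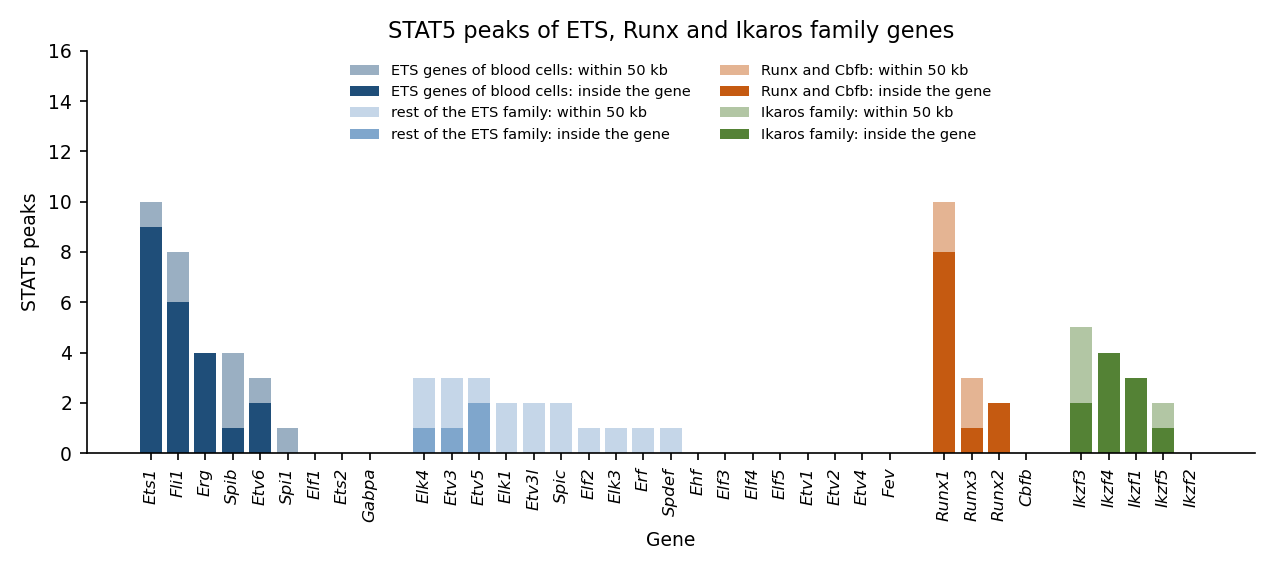
STAT5 peaks (vertical axis) of each gene of the ETS, Runx and Ikaros families. The full bar counts peaks within 50 kb or inside the gene and its dark part those inside the gene. Ets1 and Runx1 reach 10 and Fli1 8, the rest of the ETS family reaches 3, and the Ikaros family 5.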

How the data were processed

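STAT5 ChIP-seq was done in 1 library with 1 input library. The authors deposited 1 list of 5908 peak intervals on mm10, with a name and no score. The submitters' processing notes list the build mm10 and the tools MACS2, Picard and BWA 0.7.4, with no role for any. The sources used here do not give the peak threshold, the filters or the use of the input, and read depth is unknown. Fragments averaged 200 bp, per the labels' protocols.

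Peak midpoints were compared with RefSeq genes (GRCm38.p6) in Python 3.11.15 with pandas 2.3.3. Genes starting below 3000000 bp on any chromosome but Y were left out as probably unplaced, which left 21779 protein-coding genes. Positions count from 1. A gene without a strand in the promoter table is described by its ends. Distances run from peak midpoints. The 9 ETS genes and the other gene lists were chosen with earlier results of these data known, so no test was made over them. All 9 genes are named, every peak of the Ets1-Fli1 locus is given, and for the other ETS genes at least the widest peak and the one nearest to the gene start. Counting was tested on simulated peaks, which it returned for 200 of 200 genes. Shares carry exact (Clopper-Pearson) 95% intervals. The alternatives were flanks of 20 and 100 kb, any overlap of 1 bp, peaks at least as wide as the median, the first 2954 lines, joining of peaks under 5 kb apart, and assignment to the nearest gene end.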

Additional observations from a re-analysis of the deposited data

How the results depend on the processing

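Of the 9 ETS genes, 6 had a peak, and 5 or 6 did under each of the 7 alternatives. Their distinct peaks, 30 in all, fell to 19 among peaks at least as wide as the median and to 17 in the first 2954 lines of the file, whose order has no stated key. The Ets1-Fli1 locus had 12 of its 18 peaks among the wide ones and 10 in those lines. Both lists are shorter by construction. Under the other settings the ETS genes had 23 to 34 peaks and the locus 13 to 19. The median width was recomputed with both flanks, any overlap and the nearest gene end, and ran from 310 to 320.5 bp. For the rest of the ETS family, counted in alternatives added after the data were seen, 10 genes with a peak fell to 6 with 20 kb flanks, 6 in the first 2954 lines and 4 by the nearest gene end. The share of all protein-coding genes with a peak moved from 33.0% to 21.6% with 20 kb flanks, 45.8% with 100 kb, 19.6% among wide peaks, 19.7% in the first lines and 16.4% by the nearest gene end. No paired analysis was possible because there was 1 ChIP library and no test between groups. Leaving out a replicate was not possible either. With read depth unknown, a gene without a listed peak cannot be told from one with weak binding.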
